A study of Mus musculus with 6 samples.

Results

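The 6 mouse olfactory sensory neurons fell into 3 pairs by the odorant receptor gene that each expressed most, and the rest of their transcriptomes was compared within and between these pairs. All 6 neurons of the series entered, and each was paired with the cell that shared its leading Olfr gene: OSN1 with OSN2 (Olfr740), OSN3 with OSN4 (Olfr741) and OSN5 with OSN6 (Olfr743). The pairs were chosen by the measured receptor counts of these same libraries, so the receptor levels are a description and support nothing. Each library is 1 neuron from the olfactory epithelium of wild type C57BL/6 mice aged 6 weeks, frozen after a physiological recording and sequenced by CEL-Seq2, a method that primes at the poly(A) tail. The labels put all cells in 1 group and name no animals and no recorded responses. A pair may therefore come from 1 mouse or from different mice, and no p-value is given anywhere. Differences are set against counting error and against the other ways to pair the same 6 cells.

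An olfactory sensory neuron is known to transcribe mainly a single odorant receptor gene from a very large family. The receptor feeds a cAMP cascade in the cilia, and its identity also steers where the axon ends in the olfactory bulb, partly through guidance and adhesion molecules whose levels follow the receptor and the activity of the cell. Neurons with the same receptor send their axons to the same glomeruli. A comparison of cells that share a receptor with cells that do not asks whether other genes follow the receptor.

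The 3 receptor genes are close relatives. In GRCm38 all 3 are on chromosome 14, plus strand, and their coding sequences, counted with the stop codon, are 936 bases long each. Olfr740 and Olfr741 were identical at 90.9% of coding bases (85 differences), Olfr740 and Olfr743 at 90.9% (85 differences), and Olfr741 and Olfr743 at 92.3% (72 differences). The first 150 coding bases of each gene are shown from the GENCODE M21 models on GRCm38, because they show how much sequence the 3 genes that define the pairs have in common. Capitals mark the 23 positions at which the 3 genes are not all equal. The stretches lie at chr14:50453054-50453203, chr14:50485460-50485609 and chr14:50533414-50533563.
Olfr740: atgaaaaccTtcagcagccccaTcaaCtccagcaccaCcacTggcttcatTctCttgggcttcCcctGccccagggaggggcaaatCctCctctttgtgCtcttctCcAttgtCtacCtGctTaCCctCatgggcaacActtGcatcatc
Olfr741: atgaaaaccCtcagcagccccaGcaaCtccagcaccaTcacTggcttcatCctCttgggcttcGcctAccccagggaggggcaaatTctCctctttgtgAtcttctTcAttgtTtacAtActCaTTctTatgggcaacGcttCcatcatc
Olfr743: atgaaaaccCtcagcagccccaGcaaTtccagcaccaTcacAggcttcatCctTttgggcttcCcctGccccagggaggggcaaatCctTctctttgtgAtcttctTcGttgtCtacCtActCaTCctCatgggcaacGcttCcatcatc

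Reads of the leading receptors could be told apart by sequence over most of their length. Of the 50-base windows in the coding sequence, 4.28% were shared by Olfr740 and Olfr741, 4.96% by Olfr740 and Olfr743, and 14.1% by Olfr741 and Olfr743. The last 1000 bases of the longest transcripts, where CEL-Seq2 reads mostly fall, shared 0 such windows. Olfr740 stood at 6386 CPM (counts scaled to a common library total; 95% Poisson interval 4811 to 8312) in OSN1 and at 5047 CPM (4325 to 5855) in OSN2. Olfr741 stood at 3468 CPM (3146 to 3814) in OSN3 and at 3169 CPM (2738 to 3649) in OSN4. Olfr743 stood at 4928 CPM (4054 to 5934) in OSN5 and at 3667 CPM (2654 to 4940) in OSN6. The intervals of the 2 cells overlapped in each pair.

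The libraries differed in depth. Totals were 8613, 34478, 122546, 60902, 22525 and 11725 counts in OSN1 to OSN6, so OSN3 and OSN4, a pair by receptor, were also the 2 deepest libraries. A single count was worth between 8.16 CPM (OSN3) and 116 CPM (OSN1). Mitochondrial transcripts took 14.4% and 11.7% of counts in OSN1 and OSN2, 6.47% and 4.40% in OSN3 and OSN4, and 7.62% and 12.3% in OSN5 and OSN6. Omp, the olfactory marker protein, was counted in all 6 cells (4680 to 9441 CPM), and the markers listed for basal cells and for microvillar cells had 0 counts in every cell. Markers of nasal glands summed to 6966, 32165, 1020, 558, 5461 and 85.3 CPM, and those of red blood cells to 1742, 4264, 4080, 12610, 2575 and 171 CPM.

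Over the whole transcriptome, cells that shared a receptor differed little in similarity from cells that did not. Spearman's rho was computed across the 9712 non-receptor genes that averaged 10 CPM or more, after each cell was thinned to 8613 counts, and averaged over 20 draws. The 3 same-receptor pairs had a mean rho of 0.241, and the 12 mixed pairs had 0.232 with an SD of 0.0354. The difference of 0.00917 is smaller than that SD. Over the 20 draws it ran from -0.00114 to 0.0207. Among the 15 ways to join 6 cells in 3 pairs, the pairing by receptor came 4th, within a range of -0.0254 to 0.0225. These correlations are descriptions across genes that share a library, and genes are not independent replicates.

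**Figure D1:**
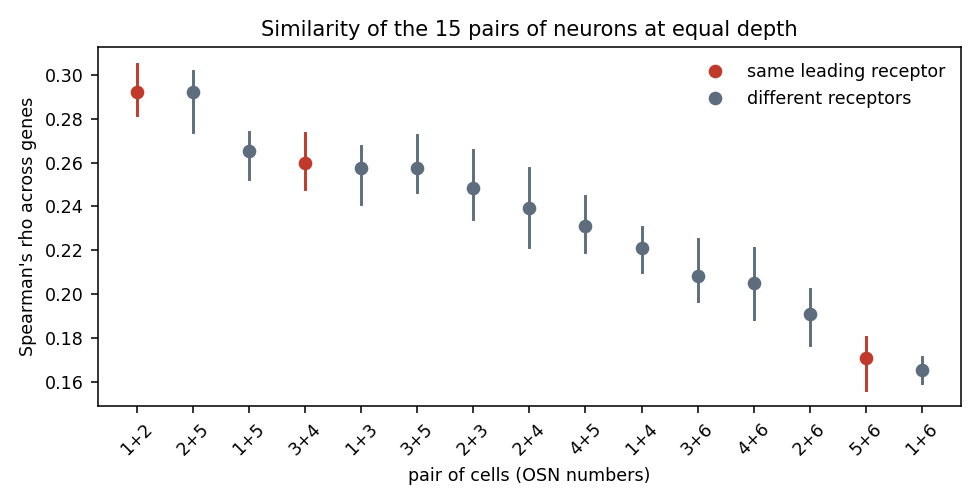
Spearman's rho across 9712 non-receptor genes for each of the 15 pairs of neurons at an equal depth of 8613 counts, in falling order; points are means and bars the range over 20 draws. The same-receptor pairs (red) stand 1st, 4th and 14th, with rho of 0.292, 0.260 and 0.171.

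The 3 pairs behaved differently from one another. OSN1 with OSN2 had the highest rho of the 15 pairs (0.292), level with the mixed pair OSN2 with OSN5 (0.292). OSN3 with OSN4 came 4th (0.260), next to OSN1 with OSN3 (0.258) and OSN3 with OSN5 (0.258), whose ranges over draws overlapped it. OSN5 with OSN6 came 14th (0.171), above OSN1 with OSN6 alone (0.165). For 4 of 6 cells (OSN1, OSN2, OSN3 and OSN4) the nearest other cell was the one with the same receptor. For OSN5 the same-receptor cell was the farthest of the 5 others, and for OSN6 it was the 4th of 5. OSN6 had the lowest mean rho with the other cells (0.188), against 0.231 to 0.253 for the rest.

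Relatedness of the receptors was not mirrored by order in these similarities. Olfr741 and Olfr743, the most alike in coding sequence, gave a mean rho of 0.226 over 4 mixed pairs (0.205 to 0.258). Olfr740 with Olfr741 gave 0.242 (0.221 to 0.258) and Olfr740 with Olfr743 gave 0.228 (0.165 to 0.292). The 3 ranges overlapped, and the 4 pairs behind each share cells.

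Single cells decided the sign of the difference. Without OSN1, OSN2 or OSN4 the difference was -0.0138, -0.0102 and -0.00743, and without OSN3 it was 0.00212. Without OSN6 it was 0.0240, and without OSN5 it was 0.0592, in each case the highest of the 15 pairings. Among 691 genes that averaged 200 CPM or more the difference was 0.0461, the 3rd of 15. Abundant genes thus showed a wider gap than all genes did, with OSN5 and OSN6 still 13th of 15 (0.236).

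**Figure D2:**
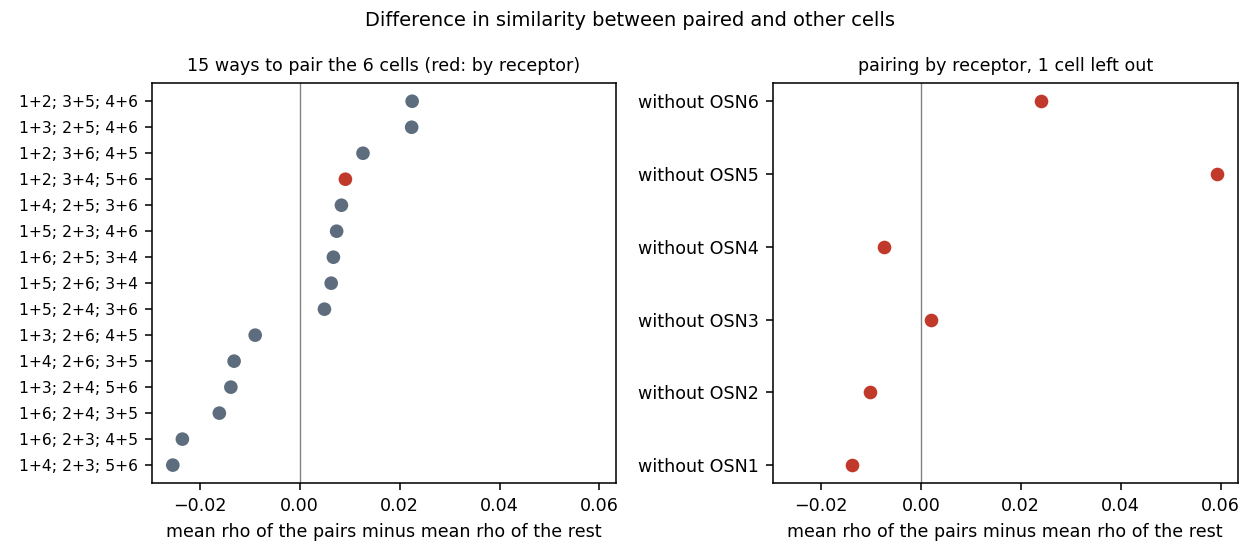
Mean rho of the paired cells minus mean rho of all other pairs, for the 15 ways to pair the 6 neurons (left; the pairing by receptor in red) and for the pairing by receptor with 1 cell left out (right). The receptor pairing stands 4th on the left, and on the right the difference runs from -0.0138 without OSN1 to 0.0592 without OSN5.

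Genes shared by a pair were listed next. A non-receptor gene is called pair-high when the lower of its 2 CPM values in the pair is above the CPM of all 4 other cells, with at least 3 counts in that lower cell, among 16278 genes with a count in any cell. OSN1 with OSN2 had 75 pair-high genes (0.461% of genes tested), OSN3 with OSN4 had 808 (4.96%) and OSN5 with OSN6 had 161 (0.989%). The 12 mixed pairs had 77 to 336, with a median of 161. The same-receptor pairs thus came last, first and 8th of 15. The reverse, a pair-low gene, has its higher CPM in the pair below all 4 other cells, each with at least 3 counts. There were 83 pair-low genes in OSN1 with OSN2 (0.51%), 48 in OSN3 with OSN4 (0.295%) and 50 in OSN5 with OSN6 (0.307%), against 24 to 223 in mixed pairs.

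Depth moved with these counts. OSN3 and OSN4 could show 3 counts of a weak gene where the shallow cells could not: 3827 genes had 3 counts in both, against 474 for OSN1 with OSN2 and 525 for OSN5 with OSN6. Of those genes, the pair-high ones made up 21.1% in OSN3 with OSN4 (6th of 15), 15.8% in OSN1 with OSN2 (12th) and 30.7% in OSN5 with OSN6 (2nd), against 8.39% to 34.6% in mixed pairs. After thinning to 8613 counts, with at least 1 count in the lower cell, the means over draws were 353.5 for OSN3 with OSN4 (331 to 398), 192 for OSN1 with OSN2 (169 to 207) and 184 for OSN5 with OSN6 (165 to 200). Mixed pairs had 118 to 309. At that minimum OSN3 with OSN4 was the highest of the 15 pairs, and the other 2 same-receptor pairs came 12th and 13th. With at least 3 thinned counts in the lower cell the order changed: OSN3 with OSN4 had 56.2 genes (4th), OSN5 with OSN6 had 58.6 (3rd) and OSN1 with OSN2 had 42.2 (11th), against 24.1 to 59.4 in mixed pairs. The lead of OSN3 with OSN4 at equal depth thus rested on genes with 1 or 2 counts.

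**Figure D3:**
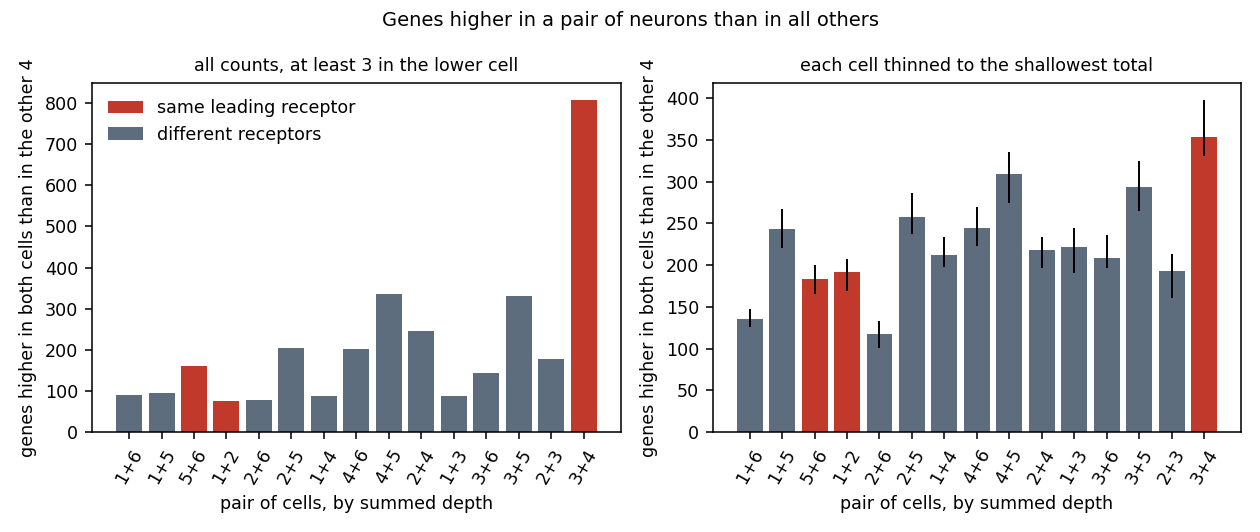
Number of genes higher in both cells of a pair than in the 4 other cells, for the 15 pairs ordered by summed depth, with all counts and at least 3 in the lower cell (left) and after thinning to 8613 counts with at least 1 count in the lower cell (right; bars show the range over 20 draws). OSN3 with OSN4 is highest on both sides, with 808 and 353.5 genes, while the other same-receptor pairs (red) lie within the range of the mixed pairs or just below it.

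Summed over a whole pairing, the receptor pairs held 1044 pair-high genes, the 2nd of 15 pairings (427 to 1104), and 729 after thinning at a minimum of 1 count, the 3rd (589 to 747). Of the 3124 genes whose 2 highest cells both had at least 3 counts and the lower of them lay above the rest, 33.4% had 2 cells of 1 receptor, while such pairs are 20% of all pairs. With a minimum of 1 count the share was 27.1% of 10387 genes, and at equal depth with that minimum it was 21.6%. With the genes of OSN3 with OSN4 set aside, it was 10.2% with all counts and 12.4% at equal depth, where such pairs are 14.3% of the pairs left. The share above 20% therefore came from OSN3 with OSN4, the 2 deepest libraries.

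Counting error was wide for single genes. The 95% Poisson intervals of both cells lay above those of all 4 other cells for 2 genes in OSN1 with OSN2 (Gm26870 and mt-Rnr2), and for 0 genes in each of OSN3 with OSN4 and OSN5 with OSN6. Mixed pairs had 0 to 5 such genes. The genes named in the following paragraphs were picked for being high in a pair, so their ratios describe these cells and are not evidence that a gene follows the receptor. Each ratio compares the pooled CPM of the pair with the pooled CPM of the 4 other cells, and the pooled level weights cells by depth, so OSN3 weighs most wherever it is among the others.

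In OSN1 and OSN2, which share Olfr740, 3 mitochondrial and 3 secretory genes were among the 10 pair-high genes of highest rank. Rn7sk, the 7SK RNA that restrains transcription elongation, had 5, 15, 1, 0, 3 and 0 counts in OSN1 to OSN6 and a ratio of 25.3 (8.46 to 102). Wfdc18, a secreted whey acidic protein family member, had 8, 37, 6, 6, 8 and 0 counts (ratio 11.4, 6.58 to 20.3). Bpifb9a and Bpifb9b, secreted proteins on the gland list whose copies may exchange reads, stood at 3599 and 3626 CPM and at 2903 and 3306 CPM in the pair. OSN5 came close with 2397 and 2531 CPM, and OSN6 had 0 counts of both. The other 9 genes of the gland list summed to 464 and 25234 CPM in OSN1 and OSN2 and to 139, 213, 533 and 85.3 CPM in OSN3 to OSN6, and in them OSN1 lay below OSN5. The part of gland RNA in the result was not tested.

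The mitochondrial large ribosomal RNA, mt-Rnr2, stood at 35179 and 36342 CPM in OSN1 and OSN2 and at 8935, 11313, 15627 and 9979 CPM in OSN3 to OSN6 (ratio 3.49, 3.27 to 3.72). The non-coding gene Gm26870 (chromosome 9, 3000282 to 3038313) stood at 29606 and 26800 CPM in the pair and at 5174, 12693, 6437 and 6141 CPM in the other cells (ratio 3.67, 3.40 to 3.96). In both genes the pair-high rule already requires that the groups do not overlap, and the intervals of the pair also lay clear of the rest. The mitochondrial genes mt-Atp8 (ratio 3.59, 2.21 to 5.78) and mt-Nd5 (3.26, 2.63 to 4.03) were pair-high too. OSN1 and OSN2 also had the 1st and the 3rd highest mitochondrial share of the 6 cells.

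Outside mitochondria, Tmsb4x, which encodes the actin-binding thymosin beta 4, stood at 2090 and 1972 CPM in the pair and at 522, 509, 1465 and 853 CPM in OSN3 to OSN6 (ratio 3.15, 2.38 to 4.15). Arhgdig had 5, 12, 3, 8, 6 and 0 counts (ratio 5.05, 2.42 to 10.5). The neuropeptide gene Cartpt, chosen after its values were seen, had 2 and 7 counts in OSN1 and OSN2 and 0 in the 4 other cells. At 203 CPM, its lower level in the pair, Cartpt would be visible in OSN3 and OSN4, where 3 counts are 24.5 and 49.3 CPM, but not in OSN6, where 3 counts are 256 CPM.

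Of the 5 pair-low genes named for OSN1 and OSN2, 3 act on the neuronal cytoskeleton. Kif1a, a kinesin that carries synaptic vesicle precursors, stood at 464 and 493 CPM in the pair and at 702, 1363, 1110 and 2729 CPM in OSN3 to OSN6 (ratio 0.469, 0.285 to 0.735). Tuba1a, an alpha tubulin, stood at 581 and 783 CPM against 979, 3448, 977 and 1791 CPM (ratio 0.433, 0.292 to 0.623). Stmn3, a stathmin that acts on microtubules, had 0 and 13 counts in the pair and 59, 56, 11 and 7 in the others. Ptprs, a receptor tyrosine phosphatase of axons, had a ratio of 0.320 (0.150 to 0.604), and Ypel3 had 0.352 (0.189 to 0.604).

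In OSN3 and OSN4, which share Olfr741, Cspg4 (chromosome 9, 56865033 to 56899870, plus strand) was the gene of highest rank. It encodes the NG2 proteoglycan, known from pericytes and oligodendrocyte precursors, and had 43 and 60 counts in OSN3 and OSN4 (351 and 985 CPM) and 0 in the 4 other cells. Its lower level in the pair was at least 9.05-fold higher than the level that 3 counts in the 4 pooled cells would give. The 0 in OSN1 allows up to 428 CPM at the upper Poisson bound, and the 351 CPM of OSN3 lies within that bound. Of 6 pericyte markers chosen after these values were seen (Pdgfrb, Rgs5, Kcnj8, Abcc9, Anpep and Acta2), 0 had a count in any cell. Of 4 markers of oligodendrocyte precursors (Pdgfra, Sox10, Olig1 and Olig2), 2 had counts, summing to 1, 2, 16, 3, 2 and 0 in OSN1 to OSN6, with Pdgfra and Sox10 at 0.

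Ctnnbip1, Cbfa2t3 and Rnf185 came next in rank in this pair. Rnf185, an endoplasmic reticulum ubiquitin ligase, had 0, 0, 32, 122, 3 and 0 counts (ratio 21.6, 7.27 to 106). Ctnnbip1, an inhibitor of beta-catenin, had 0, 0, 34, 23, 3 and 0 counts (ratio 8.01, 2.61 to 40.0). Cbfa2t3, a transcriptional corepressor, had 0, 1, 35, 16, 1 and 0 counts (ratio 10.8, 2.83 to 91.2). In all 3 genes the other cells held 3 counts or fewer in total, and OSN1 and OSN6 had 0 at limits of 348 and 256 CPM for 3 counts. Prune2 had 1, 3, 56, 37, 2 and 0 counts (ratio 6.53, 2.89 to 18.3). Auh, a mitochondrial hydratase that binds AU-rich RNA, Dexi and Ell3, a transcription elongation factor, had ratios of 5.20 to 8.85, and the genes Gm3226 and Gm5100 had ratios of 16.0 (4.29 to 135) and 7.17 (2.32 to 35.9). The lower bounds of these 5 ratios ran from 1.65 to 4.29.

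Members of the neuronal lists were also pair-high in OSN3 and OSN4, along with others of the same lists that were not. Of 9 voltage-gated channel genes with 3 counts in the lower of their highest 2 cells, 4 (44.4%) had these cells in a same-receptor pair. Some of these were in OSN5 with OSN6. Of 9 receptor choice and trafficking genes, 3 (33.3%) had their highest 2 cells in a same-receptor pair. Of all genes at that minimum, 33.4% did. Cacna1h, a T-type calcium channel, stood at 579 and 394 CPM in the pair, at 232 and 116 CPM in OSN1 and OSN2, and at 44.4 and 85.3 CPM in OSN5 and OSN6 (ratio 5.01, 2.44 to 11.9). Cplx2, a complexin of the synaptic vesicle machinery, had 28 and 26 counts against 1, 4, 2 and 0 (ratio 3.25, 1.48 to 8.47). Slc17a6, the vesicular glutamate transporter of these neurons, had 40 and 10 counts against 1, 4, 1 and 0 (ratio 3.51, 1.51 to 10.03). By the pair-high rule that named them, each of these 3 genes was higher in both cells of the pair than in any other. Atf5, the transcription factor of the stress response that accompanies receptor choice, stood at 1983 and 2167 CPM against 813, 1218, 1243 and 1109 CPM (ratio 1.76, 1.39 to 2.24). Rtp1, a chaperone that carries odorant receptors to the cell surface, stood at 563 and 410.5 CPM against 232, 348, 222 and 0 CPM (ratio 2.09, 1.26 to 3.62), while its relative Rtp2 stood at 685 CPM in OSN3 and at 32.8 CPM, the lowest of the 6 cells, in OSN4. The immediate early gene Jund (ratio 1.49, 0.985 to 2.32) was pair-high by a narrow margin.

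Some transcripts of other cell types were pair-high in OSN3 and OSN4. Hba-a1 and Hba-a2, the alpha globins of red blood cells, which may exchange reads, had ratios of 2.297 (1.80 to 2.96) and 2.52 (1.96 to 3.30). The beta globins Hbb-bs and Hbb-bt were highest in OSN4 and OSN2 instead, with 4121 and 1218 CPM and with 1445 and 261 CPM, against 498 and 196 CPM in OSN3. Apoe, on the list for ensheathing glia, had 17 and 4 counts against 1 in OSN5 and 0 elsewhere, while Sox10 of that list had 0 counts in all cells. Bpifa1, on the gland list, had 5 and 9 counts against 1 in OSN2. Their part in the pair's other results was not tested. Pseudogenes made up 27.6% of the 808 pair-high genes, 20% of the 75 of OSN1 with OSN2 and 6.83% of the 161 of OSN5 with OSN6. Among all 16278 genes with a count, without the minimum of the pair-high rule, they made up 19.6%.

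The pair-low genes of OSN3 and OSN4 included genes of translation and chloride transport. Rps20, a ribosomal protein gene, stood at 89.8 and 246 CPM in the pair and at 464, 464, 488 and 512 CPM in OSN1, OSN2, OSN5 and OSN6 (ratio 0.296, 0.172 to 0.503). Eprs, a tRNA synthetase, had a ratio of 0.422 (0.207 to 0.859). Slc12a2, the cotransporter that loads olfactory neurons with chloride, stood at 131 CPM in both cells and at 232 to 464 CPM in the others (ratio 0.440, 0.238 to 0.816). Acsl6, a long-chain acyl-CoA synthetase, and Gm28439, an unprocessed pseudogene, had ratios of 0.349 (0.206 to 0.588) and 0.285 (0.224 to 0.363). Of the 48 pair-low genes of this pair, 8 (16.7%) were encoded in mitochondria, and of all 16278 genes with a count 0.154% were. The pair-low rule asks for a minimum count in every cell outside the pair, so weak genes could not qualify. The 0.154% includes such genes, and the share among genes able to qualify was not computed. The distance between these shares therefore does not measure an excess of mitochondrial genes. The mitochondrial share of the library was lower in OSN3 and OSN4 than in any other cell.

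In OSN5 and OSN6, which share Olfr743, the adhesion gene Pcdh10 (chromosome 3, 45378398 to 45435623, plus strand) ranked 4th among pair-high genes. This protocadherin mediates contact between like cells and is known to differ between olfactory neurons. It had 0, 0, 13, 0, 36 and 7 counts in OSN1 to OSN6, that is 1598 CPM (1119 to 2213) in OSN5, 597 CPM (240 to 1230) in OSN6 and 106 CPM (56.5 to 181) in OSN3. The ratio was 21.9 (11.5 to 44.3). OSN2 and OSN4 were at 0 with upper bounds of 107 and 60.6 CPM, below both cells of the pair, while OSN1 at 0 allows up to 428 CPM.

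Of 9 immature neuron markers with a count, 2 (Gap43 and Dcx) had their highest 2 cells in OSN5 and OSN6, and 7 had them in a mixed pair. The share in a same-receptor pair was thus 22.2%, beside 27.1% of all genes at a minimum of 1 count. Tubb3, Marcksl1, Dpysl3 and Dpysl5 of that list had 0 counts in OSN6. Stmn1 and Crmp1 were instead highest in OSN6, at 853 CPM each, with OSN5 at 178 and 44.4 CPM. Kirrel3, an adhesion molecule of olfactory axons, had 0, 1, 0, 4, 3 and 5 counts (ratio 10.6, 3.05 to 41.1). Gap43, a growth cone protein, had 0, 6, 1, 13, 5 and 8 counts (ratio 4.30, 1.97 to 9.08), and its level in OSN5 (222 CPM) was close to that in OSN4 (213 CPM). Dcx, a microtubule protein of young neurons, had 2, 6, 25, 13, 9 and 8 counts (ratio 2.44, 1.31 to 4.35). Kirrel3, Gap43 and Dcx were highest in OSN6, a shallow library in which 1 count is 85.3 CPM. Ncam1, an adhesion molecule of neurons, stood at 2974 and 2388 CPM against 1161, 1682, 1297 and 2036 CPM (ratio 1.79, 1.41 to 2.25). Nrp1, a semaphorin receptor that sorts olfactory axons, and its partner Plxna1, both chosen after their values were seen, had 1, 3, 1, 0, 7 and 2 counts and 0, 0, 0, 0, 1 and 1 counts. The ratio for Nrp1 was 11.9 (3.58 to 45.2).

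Channel and cell maintenance genes completed the list for OSN5 and OSN6. Cacna2d1, an auxiliary subunit of calcium channels, had 0, 2, 5, 11, 10 and 7 counts (ratio 6.25, 3.03 to 12.8). Scn3a, a sodium channel, had 0, 5, 6, 1, 14 and 3 counts (ratio 9.37, 4.22 to 21.5). Pop5, a subunit of ribonuclease P, had 1, 3, 0, 0, 6 and 8 counts (ratio 23.1, 7.27 to 96.6). Each rests on 14 counts or fewer in any cell of the pair. Cdc5l of the spliceosome, the Golgi GTPase Arl1, the nuclear lamin Lmna, the autophagy gene Trp53inp2, the microtubule plus-end protein Mapre1 and the transcript Gm13648 had 5 to 13 counts in a cell of the pair and ratios of 7.22 to 14.6. Gm47283, annotated on chromosome Y, had 5, 4, 2, 12, 24 and 16 counts (ratio 11.5, 6.72 to 20.1). The Y genes Ddx3y, Uty, Kdm5d and Eif2s3y had 0 counts in OSN6. They reached at most 148 CPM in any cell (Kdm5d in OSN4), below the 256 CPM of 3 counts in OSN6, so that 0 says little. Nfib, a transcription factor on the ventral zone list, stood at 710 and 426 CPM against 232 to 378 CPM, and Reep1, which promotes receptor export, had 3 and 4 counts against 0, 2, 7 and 2.

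The 5 named genes lowest in OSN5 and OSN6 had varied roles. Chga, a granule protein, stood at 666 and 938 CPM against 1161, 1189, 2432 and 1823 CPM in OSN1 to OSN4 (ratio 0.374, 0.242 to 0.555). Umodl1, on the list of mature neuron markers, had 5 and 0 counts against 14, 14, 145 and 27 (ratio 0.165, 0.0531 to 0.392). Gfy and Rtp2 of that list were highest in OSN6 instead (9638 and 1023 CPM). Spef2, a protein of motile cilia, had 3 and 2 counts against 5, 11, 99 and 35 (ratio 0.220, 0.0706 to 0.526). By the pair-low rule that named them, both cells lay below the other 4 in each gene. Atox1, a copper chaperone, and Eef2, the translation elongation factor, had ratios of 0.416 (0.204 to 0.762) and 0.199 (0.0850 to 0.398).

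**Figure D4:**
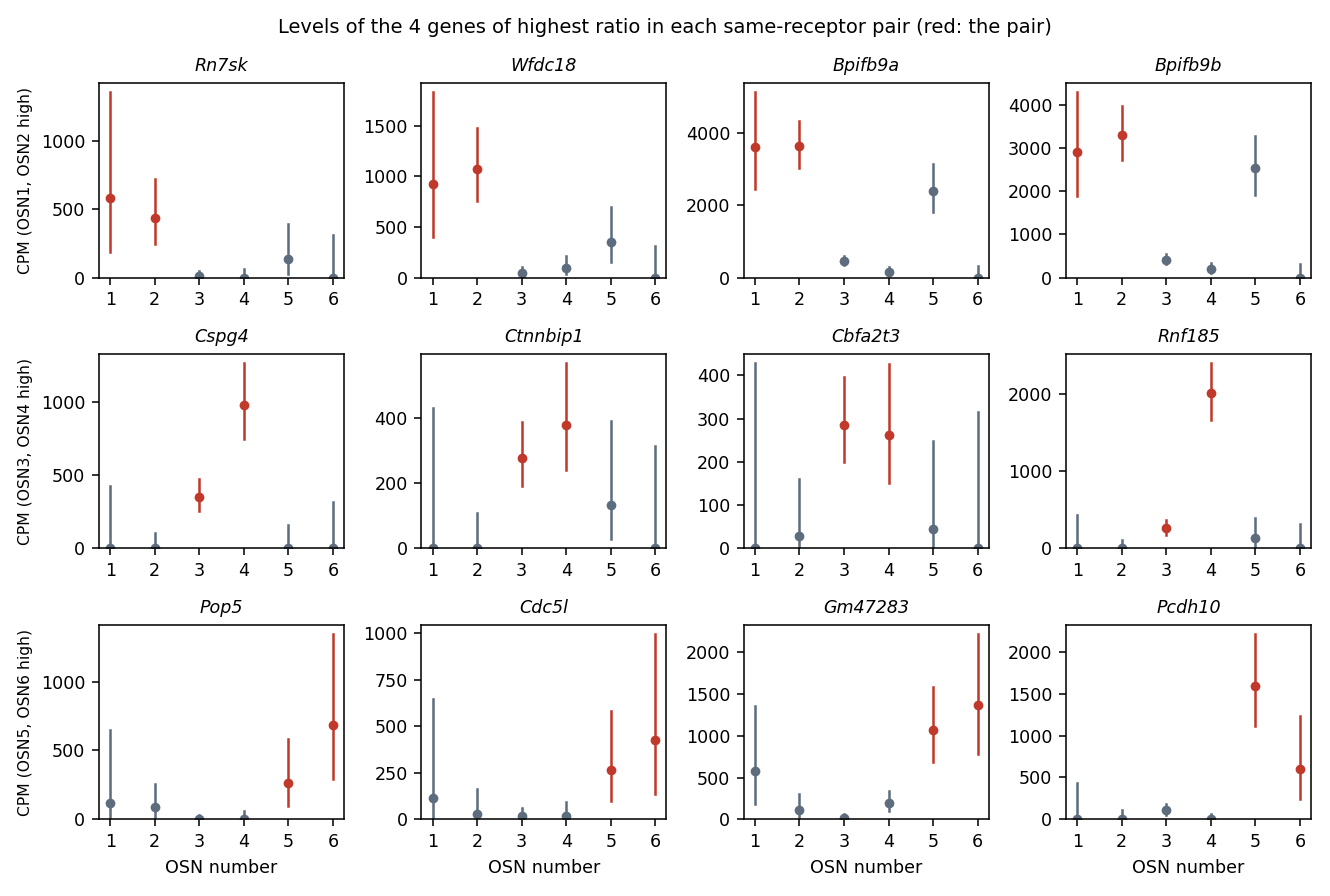
CPM in the 6 neurons of the 4 pair-high genes of highest rank in each same-receptor pair, with 95% Poisson intervals; red marks the pair and each panel has its own linear axis. Cspg4 has 0 counts outside OSN3 and OSN4, Pcdh10 is at 1598 and 597 CPM in OSN5 and OSN6, and Bpifb9b in OSN5 (2531 CPM) comes near the pair OSN1 with OSN2.

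For 0 of the 14 genes of odour transduction were the 2 highest cells a same-receptor pair, at a minimum of 1 count, where 27.1% of all genes had such a pair and such pairs are 20% of pairs. At 3 counts in the lower cell, 0 of 11 were, where the share was 33.4% of all genes. With the genes of OSN3 with OSN4, the 2 deepest libraries, set aside, that share was 10.2%. The highest 2 cells were most often OSN1 with OSN3 or OSN1 with OSN5. Adcy3, the adenylyl cyclase, stood at 1509 and 1240 CPM in OSN1 and OSN3 but at 435 and 82.1 CPM in their partners OSN2 and OSN4. Cnga2, the channel subunit opened by cAMP, stood at 929 and 734 CPM in OSN1 and OSN3 against 348 and 296 CPM in their partners. Stoml3, a cilia membrane protein, gave 12539 and 8625 CPM against 4525 and 4729 CPM. In these 3 genes both OSN1 and OSN3 lay above both of their partners. Of the 3, only Stoml3 met the rule for named genes, and Cnga2 had 8 counts in OSN1. Gnb1 and Gng13, the other list members named by that rule, differed. Gnb1 stood at 2786 and 1836 CPM in OSN1 and OSN3 against 2146 and 2102 CPM in their partners. Gng13 stood at 1742 and 1795 CPM against 2204 and 1970 CPM. Gnal, the olfactory G protein alpha subunit, stayed between 1276 and 2131 CPM in all cells. Of the 6 activity-linked genes, 0 had their highest 2 cells in a same-receptor pair (0 of 4 at 3 counts), beside the same 27.1% and 33.4% of all genes. Kirrel2 stood at 2464 CPM in OSN3 and 82.1 CPM in OSN4, and S100a5 between 4992 and 9126 CPM.

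Axon guidance and adhesion genes were mostly highest in mixed pairs, as genes in general were. Of 24 such genes with a count, 6 had their highest 2 cells in a same-receptor pair (Kirrel3, Nrp1, Plxna1, Pcdh10, Sema3a and Sema3f) and 18 in a mixed pair, a share of 25% against 27.1% of all genes. With at least 3 counts in the lower cell there were 2 and 11, a share of 15.4% against 33.4%. That 33.4% includes the genes of OSN3 with OSN4, the 2 deepest libraries. With those genes set aside, the share of all genes was 10.2%. Sema3f, a secreted repellent of olfactory axons chosen after its values were seen, had 3 and 2 counts in OSN3 and OSN4 and 0 elsewhere. Nrp2, the receptor for that ligand, stood at 464 and 253 CPM in OSN1 and OSN3, with partners at 87.0 and 49.3 CPM. Kirrel2 and Sema7a were also highest in cells of different receptors.

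How much of each gene's variation lay between the receptor pairs was measured as a share of the sum of squares of log2(CPM + 10). Over the 3902 non-receptor genes that averaged 50 CPM or more, the median share was 0.395, the highest of the 15 pairings (0.314 to 0.395), and 0.361, the 5th, at equal depth. For scale, the share is 0.4 on average when a pairing carries nothing, and a gene counted in a single cell also has 0.4. No pairing had a median above 0.4, but that value is a mean, and medians over genes need not centre on it. The middle of the 15 medians was 0.364. The receptor pairing gave the highest share of all 15 pairings for 226 genes (5.79%), the 6th of 15 (184 to 323). The lists ran from a median share of 0.257 for activity-linked genes (5 genes, 13th of 15 pairings) and 0.330 for odour transduction (13 genes, 9th) to 0.583 for presynaptic genes (9 genes, 1st). Calcium-binding proteins had 0.539 (5 genes, 1st), voltage-gated channels 0.520 (9 genes, 2nd) and axon guidance genes 0.487 (17 genes, 2nd). These list medians and places are at full depth, where OSN3 and OSN4 are the 2 deepest libraries, and no equal-depth values are given for the lists. Immature neuron markers had 0.416 and immediate early genes 0.384, close to the median of all genes. Lists of other cells lay in the same range, with 0.550 for gland genes and 0.500 for red blood cell genes.

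**Figure D5:**
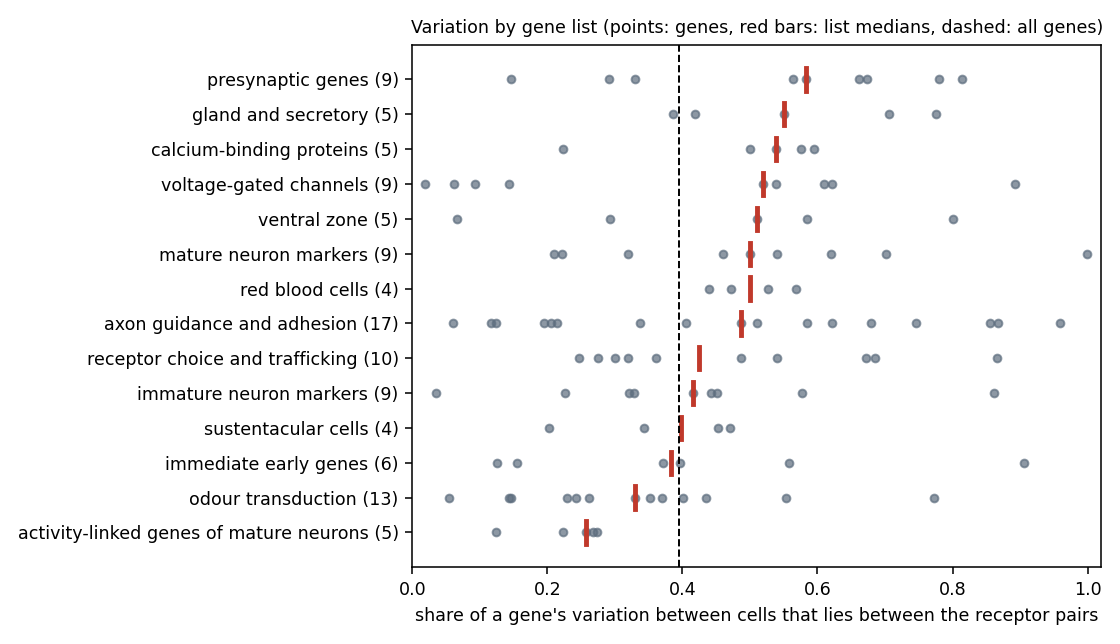
Share of each gene's variation over the 6 neurons (sum of squares of log2(CPM + 10)) that lies between the receptor pairs, for list members that averaged 50 CPM or more; red bars are list medians and the dashed line is the median of 3902 genes (0.395). Presynaptic genes have the highest median (0.583) and activity-linked genes the lowest (0.257).

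Presynaptic genes high in 1 pair included Cplx2 and Slc17a6 in OSN3 and OSN4. Syn1, a synaptic vesicle protein, had a share of 0.81 with its highest level in OSN6 (341 CPM) and its lowest in OSN2 (58.0 CPM). Snap25 and Syt1, which drive vesicle fusion, had 0.15 and 0.29. Of the 10 presynaptic genes, 3 had their highest 2 cells in a same-receptor pair and 7 in a mixed pair. That is a share of 30%, near the 27.1% of all genes at a minimum of 1 count.

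The genes around the receptor cluster carried few counts. Within 1000000 bases of the span of the 3 receptors, 62 non-receptor genes are annotated and 15 had a count in any cell. With no minimum count, 4 of these (Gm10916, Gm16082, Gm26782 and Parp2) had their highest 2 cells in OSN3 and OSN4 and 5 in mixed pairs. Gm16082, a processed pseudogene, had 6 and 5 counts in OSN3 and OSN4 and 0 elsewhere, and Parp2, a DNA repair enzyme, had 6 and 1. The same requirement held for 2054 of all 16278 genes in OSN3 with OSN4.

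A few minor receptors were shared as well, though receptors took no part in the counts of pair-high genes. Olfr742, the gene between Olfr741 and Olfr743, had 2, 1, 48, 16, 0 and 0 counts. Its reads may be confused with those of Olfr741, which was not tested, and it had 0 counts in both cells led by Olfr743. Olfr482 had 0, 0, 13, 18, 2 and 1 counts, Olfr1506 had 3 and 6 in OSN3 and OSN4, and Olfr1116 had 3 and 3. All 4 were highest in the pair led by Olfr741, and no minor receptor was highest in another same-receptor pair at 3 counts. OSN3 and OSN4 are also the 2 deepest libraries, with 808 pair-high genes against 75 and 161 in the other same-receptor pairs. Olfr1506 and Olfr1116 stood at 24.5 CPM in OSN3. A single count is 116, 29.0, 44.4 and 85.3 CPM in OSN1, OSN2, OSN5 and OSN6, so such levels could hardly be seen there. Mixed pairs shared Olfr729 (OSN2 and OSN4), Olfr281 and Olfr97 (OSN2 and OSN5).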

How the data were processed

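Counts per gene symbol for 6 cells were deposited by the authors as whole numbers in 1 table of 55341 genes. Per the submitters' processing notes, CASAVA, Bowtie2 2.3.4, HTSeq and the build mm10 were used, with no roles given. Strand setting, annotation, handling of multiply aligned reads and any collapsing of molecular identifiers were not given in the sources used here. A count may be a read or a molecule, so intervals cover counting error only. Antisense or overlapping partners and near-identical copies cannot be told apart.

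Symbols were matched to GENCODE M21 (GRCm38), with 55341 found. CPM, thinning to 8613 counts (20 seeded draws), Spearman's rho, exact 95% Poisson intervals and exact conditional intervals of ratios were computed in Python 3.11.15 with numpy 2.4.6, scipy 1.17.1 and pandas 2.3.3, and tested on simulated data. The 1421 Olfr and Taar genes were left out of comparisons. Named genes are, per pair, the 10 pair-high genes with at least 5 counts in the lower cell and the largest ratio of the lower CPM to the pooled CPM of the 4 others (under 3 counts set to 3; ties in alphabetical order), the 5 pair-low genes of smallest ratio, and list members that are abundant or pair-high. A few of these are not reported here. Members, lists and rules were chosen with earlier results of these data known. Each library is 1 cell and no animal is named, so no test was made.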

Additional observations from a re-analysis of the deposited data

Results flagged for a closer look

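Of 91 values checked over the 6 cells, 15 had 1 cell farther from the others than Dixon's 95% limit for 6 values (the gap to the next cell as a share of the range). Chance flags about 1 in 20 groups, and most of these values belong to genes picked for their pattern. OSN6 stood apart with the lowest mean similarity to the other cells (0.188). OSN2 had the highest summed gland markers (32165 CPM) and the only counts of a dorsal zone gene (58.0 CPM, 2 counts of Nqo1).

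OSN4 was far above the rest in summed red blood cell markers (12610 CPM), and in Cspg4 (985 CPM), Rnf185 (2003 CPM), Gm3226 (755 CPM), Jund (788 CPM) and Bpifa1 (148 CPM). In these 5 genes OSN4 stood well above OSN3, the other cell with Olfr741. OSN6 was far above the rest in Arl1 (682 CPM), Trp53inp2 (597 CPM), Gm13648 (1109 CPM), Gap43 (682 CPM) and Kirrel3 (426 CPM), with OSN5, the other cell with Olfr743, well below it. For Pcdh10 the order was the opposite, with OSN5 at 1598 CPM far above OSN6. A pair-high gene can thus differ more within its pair than its lower cell differs from the remaining cells.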

How the results depend on the processing

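Each result was recomputed with 1 choice changed at a time; only thinning with a minimum of 1 count changes 2 choices. That setting, intervals apart and the 500 most abundant genes were added after the data were seen. The rho difference of 0.00917 was 0.0461 with a minimum of 200 CPM and 0.0535 for the 500 most abundant genes, and ran from -0.0138 to 0.0592 with 1 cell left out. It was negative without OSN1 (-0.0138), OSN2 (-0.0102) and OSN4 (-0.00743). Pair-high counts for OSN1 with OSN2, OSN3 with OSN4 and OSN5 with OSN6 (75, 808 and 161) were 363, 2054 and 396 with a minimum of 1 count, 9, 234 and 20 with 10 counts, 13, 385 and 35 with a margin of 2 times, and 2, 0 and 0 with intervals apart. Thinned, they were 42.2, 56.2 and 58.6, and with a minimum of 1 thinned count the first 2 were 192 and 353.5. Pair-low counts (83, 48 and 50) were 360, 120 and 366 with 1 count, 6, 22 and 3 with 10 counts, and 23, 1 and 12 with a margin of 2 times. Thinned, they were 17, 27.6 and 10.3, and with a minimum of 1 thinned count the last was 86.2. The median variance share of 0.395 was 0.361 when thinned. With 1 cell outside the pair left out, pair-high counts ran from 102 to 117 (highest without OSN5), 1015 to 1216 (without OSN5) and 181 to 199, and pair-low counts from 128 to 390 (without OSN6), 69 to 110 (without OSN1) and 74 to 354 (without OSN1); fewer cells to exceed raises each count. Among the 30 named pair-high genes, 30 kept the sign of their margin over the highest other cell without mitochondrial genes and when thinned, and 29 with size factors, where Bpifb9b came to -287 CPM against OSN5. The causes were not tested. No paired analysis was possible because the cells form 1 group. Depth limits single genes in OSN1 and OSN6, where 3 counts are 348 and 256 CPM.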
